A study of Mus musculus with 9 samples.

Results

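Lipocalin-2 (Lcn2) and 6 further acute-phase genes (Saa3, Serpina3n, Cp, Lrg1, Hp and Ptx3) were followed through the cell classes of injured mouse hearts. They are 7 of the 32285 genes in the deposited matrices. The set was put together with results of these data in view: Lcn2 was among the top increases in cardiomyocyte and endothelial nuclei after injury. For the 7 genes, levels against sham hearts are therefore given as a description with no p-value, in both injured groups, since the sham hearts served in the choice. What is tested is how far the 7 genes differed between injured hearts with and without the TLR7 antagonist enpatoran. The saline-treated injured hearts also served in the choice of Lcn2. A gene picked for a high level in them can look lower in enpatoran-treated hearts for that reason alone, so the Lcn2 p-values carry this limit.

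RNA of single nuclei was sequenced from hearts of male wild-type mice aged 9 to 10 weeks, with 1 library per heart and 3 hearts in each of 3 groups. NS-Sham mice had the chest opened without coronary occlusion and received 2 injections of normal saline. In NS-I/R mice, also given saline, the left anterior descending coronary artery was occluded for 45 min and then reperfused for 24 h. Enpa-I/R mice had the same ischemia and reperfusion with 2 intraperitoneal injections of enpatoran at 5 mg/kg, the first of them 1 h before occlusion. The labels give 2 different times for the second injection. A sham group with enpatoran was not analysed here, so an action of the drug in the uninjured heart cannot be told apart from one on the injury. Nuclei came from about 50 mg of powdered frozen heart, and the labels do not say which region it was taken from.

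Acute-phase proteins are secreted proteins whose blood levels rise in inflammation. The liver makes most of them, under cytokines of the interleukin-6 family that act through STAT3 and under interleukin-1 and TNF, which act through NF-kB and C/EBP factors. Several are also made locally in inflamed tissue, and neutrophils store lipocalin-2, haptoglobin and LRG1 in their granules. Lipocalin-2 binds the siderophores with which bacteria take up iron, and it is a blood and tissue marker of heart and kidney injury.

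The sequences just upstream of the genes' annotated starts are shown for Lcn2, for Saa3 and for Ptx3, because each holds letters of a motif bound by the factors named above. RefSeq's table for GRCm38.p6 matched 6 of the 7 genes. Hp was the gene without an entry. Capitals mark the matches, offsets count from the annotated start, and each stretch runs 5' to 3' on the gene's strand over 270 bases. The Lcn2 window is chr2:32387720-32387989 on the minus strand, with a C/EBP match (TTGCNNAA, either strand) at -216. The Saa3 window is chr7:46715657-46715926 on the minus strand, with a C/EBP match at -99. The Ptx3 window is chr3:66219637-66219906 on the plus strand, with a C/EBP match at -57 and overlapping NF-kB matches at the start itself.
Lcn2: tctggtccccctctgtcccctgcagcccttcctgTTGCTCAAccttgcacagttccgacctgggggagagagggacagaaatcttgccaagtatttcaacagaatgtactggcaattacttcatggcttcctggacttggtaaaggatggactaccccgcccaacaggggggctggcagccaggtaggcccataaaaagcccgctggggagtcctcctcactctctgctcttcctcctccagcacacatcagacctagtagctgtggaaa
Saa3: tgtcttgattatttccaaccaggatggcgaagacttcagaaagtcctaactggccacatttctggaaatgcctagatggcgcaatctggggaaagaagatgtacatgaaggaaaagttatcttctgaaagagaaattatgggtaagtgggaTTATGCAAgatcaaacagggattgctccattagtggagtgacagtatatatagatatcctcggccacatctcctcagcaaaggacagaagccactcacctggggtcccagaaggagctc
Ptx3: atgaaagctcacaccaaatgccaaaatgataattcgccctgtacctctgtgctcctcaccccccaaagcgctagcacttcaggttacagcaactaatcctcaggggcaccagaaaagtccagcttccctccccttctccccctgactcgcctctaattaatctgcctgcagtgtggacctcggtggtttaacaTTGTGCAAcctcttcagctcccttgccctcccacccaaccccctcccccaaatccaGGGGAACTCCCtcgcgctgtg
Over all 32851 RefSeq windows of 300 bases, 10.8% held the C/EBP letters, 8.46% the NF-kB motif, 8.30% the STAT letters TTCNNNGAA and 13.6% the letters TATAAA. A match is a description of the letters. No window of the 6 matched genes held the STAT letters. One of the 2 Cp windows held a C/EBP match at -70 and 2 overlapping TATAAA-like runs, the Lrg1 window held TATAAA at 11, and the Serpina3n window held none of the 4 motifs.

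UMIs (unique molecules counted per gene) numbered 19651794 to 38970153 per library, and 42079 of 56766 barcodes were kept as nuclei, 3167 to 6457 per library with a median of 2365 to 3261 UMIs. Clustering without the 7 genes gave 27 clusters, 26 of them named from markers (X-like). Levels are CPM, counts per a fixed total: the gene's summed UMIs in a class of nuclei relative to all UMIs of that class in that library, with library sizes scaled by edgeR. Of the nuclei pooled over 3 hearts, 0.0378% were neutrophil-like in sham and 9.23% (by heart 7.93 to 10.9%) after injury with saline. With enpatoran the pooled value was 2.55% (by heart 1.39 to 5.05%, the highest in replicate 2). The unnamed cluster held 419 NS-I/R nuclei, 10 Enpa-I/R nuclei and 1 NS-Sham nucleus, up to 5.88% of a library. Of 41851 distinct barcodes kept, 227 occurred in 2 or more libraries.

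Before injury Lcn2 RNA was scarce and came mostly from one cell type. The 3 NS-Sham libraries held 34 Lcn2 UMIs, the 3 NS-I/R libraries 4606 and the 3 Enpa-I/R libraries 1439. Of the 34, 25 came from the 166 lymphatic endothelial-like nuclei, which line the lymph vessels of the heart. No NS-Sham endothelial-like nucleus held one (0 of 4017, which allows a share of up to 0.0747%), nor did any macrophage-like nucleus (0 of 821, up to 0.365%); these limits cover counting error only. Lcn2 in lymphatic endothelial-like nuclei was at 76.2, 30.2 and 56.7 CPM in NS-Sham, at 428, 429.8 and 280 CPM in NS-I/R, and at 292, 245 and 152 CPM in Enpa-I/R. All 6 injured hearts lay above all 3 sham hearts there, and the NS-I/R and Enpa-I/R ranges overlapped.

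After injury Lcn2 UMIs were counted in each of the 9 classes tested. In cardiomyocyte-like nuclei, the contractile cells, it was at 0.234, 0.120 and 0.245 CPM in NS-Sham against 75.7, 41.9 and 24.2 CPM in NS-I/R, a log2 difference of 7.94 ± 0.62 (SE, n = 3 hearts per group). In endothelial-like nuclei, of the blood vessels, it was at 109.8, 83.3 and 33.1 CPM in NS-I/R with no UMI in NS-Sham, at least 199.8-fold higher when NS-Sham is set to 3 UMIs over the group. In fibroblast-like nuclei it was at 59.7, 52.1 and 36.0 CPM in NS-I/R, 227-fold above the 2 UMIs of NS-Sham (95% counting interval 62.6 to 1879). NS-I/R replicate 3 had the lowest Lcn2 level of its group in 6 of the 9 classes, those of cardiomyocyte-like, endothelial-like, endocardial-like, lymphatic endothelial-like, fibroblast-like and neutrophil-like nuclei. The plot of Lcn2 by class shows this spread.

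**Figure D1:**
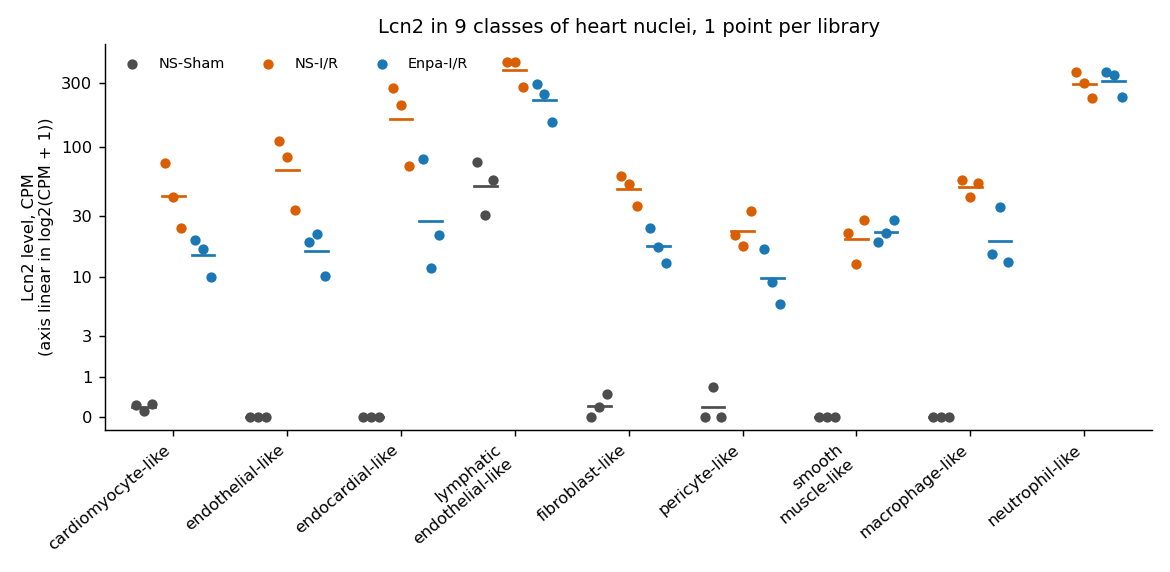
Lcn2 level in CPM, on an axis linear in log2(CPM + 1), in each heart (points) and as the mean of the plotted values (bars) for the 3 groups, by class of nuclei. All injured hearts lie above the sham hearts in each of the 8 classes with sham values, and among sham hearts the level is highest in lymphatic endothelial-like nuclei (30.2 to 76.2 CPM).

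The order of the mean levels in NS-I/R ran from lymphatic endothelial-like nuclei (379 ± 86.1 CPM, SD, n = 3) and neutrophil-like nuclei (298 ± 65.0) over endocardial-like nuclei, which line the chambers (184 ± 104), to endothelial-like nuclei (75.4 ± 39.0). Below them came macrophage-like (50.4 ± 7.76), fibroblast-like (49.3 ± 12.1) and cardiomyocyte-like nuclei (47.3 ± 26.2), then the mural cells, pericyte-like (23.9 ± 7.87) and smooth muscle-like (20.9 ± 7.60). The ranges over hearts overlapped for each pair of neighbours in this order. Cardiomyocyte-like nuclei gave 32.4% of all Lcn2 UMIs in NS-I/R, neutrophil-like nuclei 14.9%, fibroblast-like nuclei 13.5% and endothelial-like nuclei 11.6%. In whole tissue, fewer cells of a type and less RNA per cell could not be told apart; here the classes are separated, but RNA that leaked from other nuclei is counted with each class.

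That background was read from T or NK-like nuclei, lymphocytes that should lack Lcn2. With each nucleus thinned to 1000 UMIs, 6.33 ± 3.39% (SD over 3 hearts; 4.06 to 10.2%) of the 94 T or NK-like nuclei in NS-I/R held an Lcn2 UMI, and 12.4 ± 8.71% did without thinning, at a median of 2081.5 UMIs. The thinned share was 4.75 ± 1.91% in cardiomyocyte-like nuclei, 5.81 ± 2.47% in endothelial-like nuclei, 4.63 ± 0.877% in fibroblast-like nuclei and 4.53 ± 0.452% in macrophage-like nuclei, all at or below the T or NK-like mean. By this measure alone Lcn2 in those 4 classes was not above background. Without thinning, the cardiomyocyte-like share was 22.7 ± 6.62% at a median of 8428 UMIs and the endothelial-like share 9.89 ± 3.64% at 1612 UMIs. Leaked RNA need not grow with the UMIs of a nucleus, so thinning cannot settle the background of nuclei as deep as the cardiomyocyte-like ones. Shares in lymphatic endothelial-like nuclei (28.1 ± 4.90%; 22.8 to 32.5%) and neutrophil-like nuclei (20.8 ± 2.63%; 18.3 to 23.5%) did not overlap the T or NK-like range. Endocardial-like nuclei (12.9 ± 7.27%; 5.16 to 19.6%) did overlap it. The 94 B-like nuclei of NS-I/R, which should also lack Lcn2, had a thinned share of 7.40 ± 7.39% (1.71 to 15.8%), a range that lay below the lymphatic endothelial-like and neutrophil-like shares. In Enpa-I/R none of 50 T or NK-like nuclei held an Lcn2 UMI, which allows a share of up to 6.0%.

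**Figure D2:**
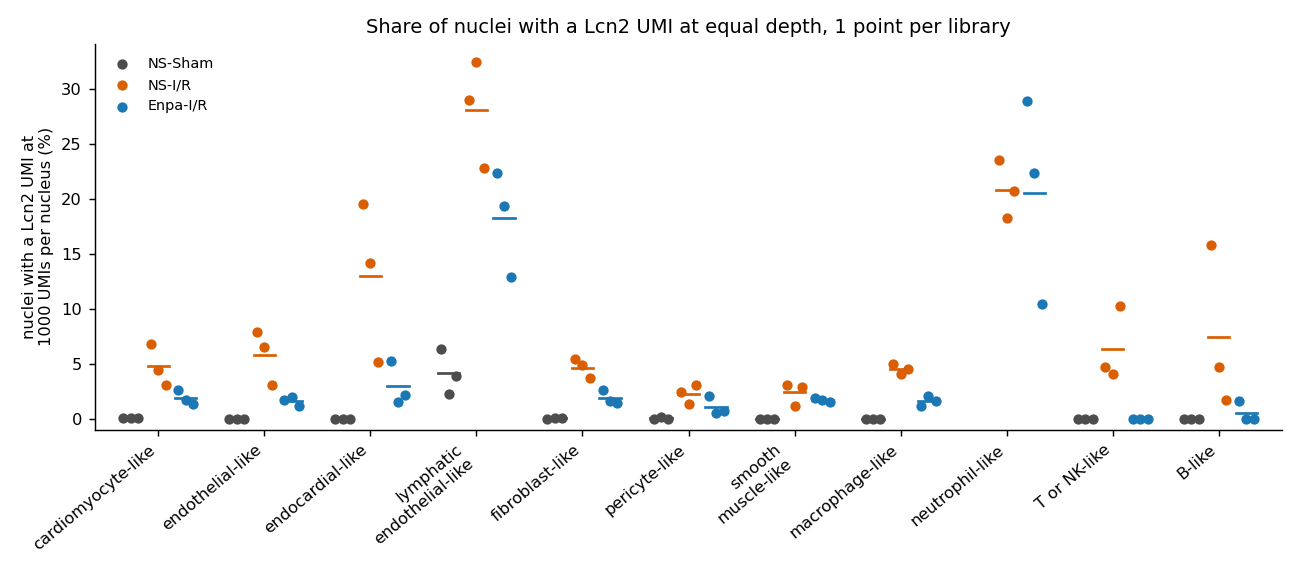
Share of nuclei with an Lcn2 UMI after thinning to 1000 UMIs, in each heart (points) and as the mean (bars), by class and group, with T or NK-like nuclei as the background class and B-like nuclei, another lymphocyte class, beside them. Macrophage-like, fibroblast-like, cardiomyocyte-like and endothelial-like shares in NS-I/R lie within or under the T or NK-like range of 4.06 to 10.2%, and lymphatic endothelial-like and neutrophil-like shares lie above it.

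The Lcn2 UMIs were spread unevenly over nuclei. In NS-I/R, 70 of 2960 cardiomyocyte-like nuclei held 5 or more Lcn2 UMIs each, with a highest value of 49, and these 70 nuclei carried 39.9% of the 1493 UMIs of the class. In Enpa-I/R 11 of 3229 cardiomyocyte-like nuclei reached 5 UMIs, and they carried 11.6% of 535. Among endothelial-like nuclei 14 reached 5 UMIs in NS-I/R (highest 20, 24.4% of the UMIs) and 0 of 3807 did in Enpa-I/R (highest 3). In endocardial-like nuclei of NS-I/R 16 nuclei carried 39.4% of the UMIs. By contrast no pericyte-like nucleus reached 5 UMIs in either injured group, and 1 macrophage-like nucleus with 29 UMIs held 39.7% of the 73 macrophage-like UMIs in Enpa-I/R.

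Lcn2 was also set against S100a8 and S100a9, the abundant calprotectin RNAs of neutrophils. In NS-I/R neutrophil-like nuclei held 0.140 Lcn2 UMIs per S100a8 or S100a9 UMI. The same ratio was 0.272 in macrophage-like, 0.301 in pericyte-like, 0.423 in smooth muscle-like, 1.06 in fibroblast-like, 1.11 in endothelial-like, 2.17 in cardiomyocyte-like, 2.42 in endocardial-like and 9.44 in lymphatic endothelial-like nuclei. Lcn2 thus stood in no fixed ratio to these 2 RNAs across classes.

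Lcn2 was called lower in enpatoran-treated than in saline-treated injured hearts in 4 of the 8 classes tested. Of all genes, 11.6% were called lower in cardiomyocyte-like, 4.05% in endothelial-like, 5.71% in fibroblast-like and 3.68% in macrophage-like nuclei, the 4 classes concerned. Lcn2 was picked with the NS-I/R hearts in view, and its p-values here carry that limit. In Enpa-I/R cardiomyocyte-like nuclei Lcn2 was at 19.7, 16.7 and 10.0 CPM, each below all 3 NS-I/R hearts (24.2 to 75.7), and fell by 1.60 ± 0.37 on the log2 scale (adjusted p = 0.0207; edgeR's quasi-likelihood test here and below unless another tool is named). In endothelial-like nuclei it was at 18.8, 21.9 and 10.0 CPM and fell by 2.15 ± 0.39 (adjusted p = 0.0114). In fibroblast-like nuclei it was at 24.2, 17.2 and 12.9 CPM and fell by 1.43 ± 0.25 (adjusted p = 0.0146). The groups did not overlap in any of these 3 classes. In macrophage-like nuclei Lcn2 was at 56.6, 41.7 and 52.9 CPM in NS-I/R and at 15.2, 35.1 and 13.1 CPM in Enpa-I/R, again without overlap, and fell by 1.21 ± 0.34 (adjusted p = 0.0484). Each of these calls was lost when certain hearts were left out 1 at a time. Over all alternatives the log2 difference ran from -1.9 to -0.92 in cardiomyocyte-like and from -2.5 to -1.79 in endothelial-like nuclei. It ran from -1.7 to -1.24 in fibroblast-like and from -1.82 to -0.98 in macrophage-like nuclei. The cardiomyocyte-like call was lost without any 1 of the 3 Enpa-I/R hearts or either of NS-I/R replicates 1 and 2, the endothelial-like call without Enpa-I/R replicate 1 or 3, and the fibroblast-like call when replicate 1 or 2 of NS-I/R, or replicate 2 or 3 of Enpa-I/R, was left out. The macrophage-like call was lost without any 1 heart apart from replicate 3 of NS-I/R and replicate 2 of Enpa-I/R, and also with DESeq2, a replicate block (adjusted p = 0.0524), 6 hearts in the fit, nuclei of at least 1000 genes or a finer clustering. In each of these 4 classes the thinned Lcn2 share in NS-I/R did not lie above that of T or NK-like nuclei. Nor did it in pericyte-like nuclei (2.28%), tested and not called, or in smooth muscle-like nuclei (2.39%), not tested. The T or NK-like share was itself 6.33% in NS-I/R with no UMI in Enpa-I/R (50 nuclei, up to 6.0%). The part of background RNA in these differences was not tested.

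The other 4 classes tested did not pass in the main fit. Endocardial-like Lcn2 was at 275.5, 205.8 and 71.3 CPM in NS-I/R and 80.9, 11.8 and 21.3 CPM in Enpa-I/R, a log2 difference of -2.06 ± 0.52 with overlap (adjusted p = 0.0942). A replicate block gave a call there (-2.35, adjusted p = 0.00994). The difference was -1.14 ± 0.42 in pericyte-like nuclei, which did not overlap (adjusted p = 0.113), and -0.70 ± 0.27 in lymphatic endothelial-like nuclei (adjusted p = 0.260). Neutrophil-like nuclei held 362, 299.9 and 232 CPM in NS-I/R and 362, 342 and 236 CPM in Enpa-I/R, a difference of 0.11 ± 0.26 (adjusted p = 0.870). Smooth muscle-like Lcn2 was under the count limit for a test, at 12.7 to 27.7 CPM in NS-I/R and 18.7 to 28.1 CPM in Enpa-I/R. Over all nuclei together Lcn2 was at 86.4, 69.8 and 46.1 CPM in NS-I/R and 28.0, 24.9 and 14 CPM in Enpa-I/R, and fell by 1.59 ± 0.29 (adjusted p = 0.0120), a sum in which the share of neutrophil-like nuclei also differed.

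Neutrophil RNA was lower in the same classes. The summed level of 9 neutrophil markers in cardiomyocyte-like nuclei was 2.03 CPM in NS-Sham (1.00 to 2.97, with Retnlg at 0), 53.8 CPM in NS-I/R (30.8 to 85.0) and 24.9 CPM in Enpa-I/R (24.4 to 25.6). It was 208 CPM (156 to 289) against 76.0 CPM (67.8 to 90.9) in endothelial-like nuclei, 126 CPM (80.1 to 196) against 42.3 CPM (36.4 to 48.8) in fibroblast-like nuclei and 729.8 CPM (446 to 1184) against 270.4 CPM (248 to 286) in macrophage-like nuclei, with none of the 9 markers at 0 in either injured group. When nuclei with any S100a8 or S100a9 UMI were left out, a choice made after seeing the data, the Lcn2 difference was -1.65 ± 0.40 in cardiomyocyte-like (adjusted p = 0.0218), -2.14 ± 0.36 in endothelial-like (adjusted p = 0.0079), -1.32 ± 0.30 in fibroblast-like (adjusted p = 0.0236) and -1.58 ± 0.31 in macrophage-like nuclei (adjusted p = 0.0120). That step kept 83.9%, 88.1%, 87.7% and 78.6% of the NS-I/R nuclei of these classes. The summed level of 7 liver-cell markers was 0.923 CPM in NS-Sham, 1.10 CPM in NS-I/R and 1.37 CPM in Enpa-I/R in cardiomyocyte-like nuclei, and 13, 29.8 and 25.2 CPM in fibroblast-like nuclei. The part of these markers in the results was not tested.

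The cardiomyocyte-like clusters differed in size between the groups and in their Lcn2 level. In NS-Sham cluster 1 held 66.6% of cardiomyocyte-like nuclei, against 2.06% of those in NS-I/R and 17.4% of those in Enpa-I/R. Cluster 20 held 50.6% of the NS-I/R nuclei of the class and 19.7% of its Enpa-I/R nuclei, with Lcn2 at 68.9 and 22.5 CPM of unscaled UMIs. Cluster 3 held 37.2% and 45.1% of them, with Lcn2 at 19.7 and 15.6 CPM. Within cluster 20 the log2 difference was -1.66 ± 0.48 (adjusted p = 0.0887), and within cluster 3 it was -0.30 ± 0.33 (adjusted p = 0.606). Over the 12 clusters with enough nuclei and counts in all 6 injured hearts the Lcn2 difference was negative in 12 and passed the test in 1, endothelial-like cluster 5, where it fell by 3.81 ± 0.59 (adjusted p = 0.0128). Of all genes, 27 of 6683 were called lower in cluster 5, and at most 85 of 7447, in macrophage-like cluster 14. Clusters 3, 12, 20 and 22 had 0 genes called lower. The share of all genes with a negative difference is not given here, so nothing is read from that count.

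Thinned shares moved the same way but could not be called. The share of nuclei with Lcn2 was 1.86 ± 0.653% in cardiomyocyte-like and 1.61 ± 0.447% in endothelial-like nuclei of Enpa-I/R, lower than in NS-I/R by 2.89 and 4.21 percentage points. Both had an exact two-sided permutation p of 0.1, the smallest that 3 against 3 hearts allow, and 0.315 after adjustment over 63 tests. All Enpa-I/R hearts lay above all sham hearts for Lcn2 in 7 of 7 classes with counts enough. The log2 difference was 6.33 ± 0.64 in cardiomyocyte-like and 2.18 ± 0.36 in lymphatic endothelial-like nuclei. Endocardial-like nuclei, where NS-Sham had no UMI, were at least 23.3-fold higher. The share of all gene-class pairs without overlap in this comparison is not given here, so nothing is read from such counts.

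Across the 7 genes, 44 of the 63 gene-class pairs had enough counts to be tested between Enpa-I/R and NS-I/R. Of these 9 were called lower and 0 higher at an adjusted p under 0.05, where 4.23% of all gene-class pairs were called lower and 3.15% higher. Groups did not overlap in 14 pairs that were lower in Enpa-I/R and in 2 that were higher, against 13.1% of all pairs not overlapping and lower. The median log2 difference of the 44 pairs was -0.71, and the median of all genes lay between -0.035 and 0.007 over the classes. The pairs passed the count limit mostly through the injured groups in which they are high, and a gene's pairs share hearts, so the counts describe these genes only. The share of all genes called lower was 11.6% in cardiomyocyte-like nuclei, 4.05% in endothelial-like nuclei, 5.71% in fibroblast-like nuclei and 3.68% in macrophage-like nuclei. The count of 9 rested on single hearts: it was 25 without NS-I/R replicate 3, but 2 without NS-I/R replicate 1, 1 without NS-I/R replicate 2, 2 without Enpa-I/R replicate 1 or replicate 2, and 0 without Enpa-I/R replicate 3; without NS-Sham replicates 1, 2 and 3, hearts that share in the estimate of spread, it was 6, 8 and 6.

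**Figure D3:**
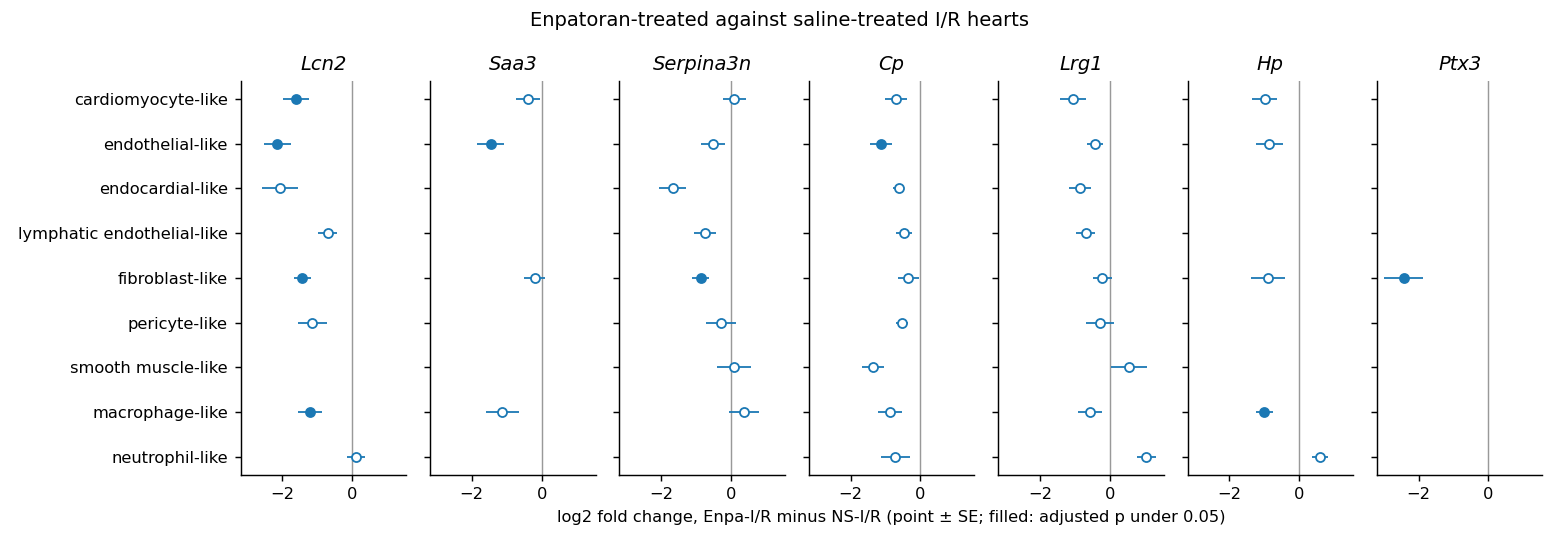
Log2 difference between Enpa-I/R and NS-I/R (point, with the SE as a line) for each of the 7 genes (panels) in each class (rows), filled where the adjusted p is under 0.05, with untested pairs left blank. The 9 called pairs are all lower in Enpa-I/R, and 4 of them are Lcn2.

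NS-I/R against NS-Sham gave 35 of 40 tested pairs with all NS-I/R hearts above all sham hearts and 0 below, where 21.3% of all gene-class pairs did not overlap and were higher. As the genes were picked from this contrast, nothing is read from that count. Between Enpa-I/R and NS-Sham the fit called 29 of 40 pairs higher and 1 lower, where 6.40% of all pairs were called higher and 6.0% lower. The same sham hearts served in the choice, so nothing is read from this count either. The 3 contrasts share hearts, so their values are placed side by side and not related to each other.

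**Figure D4:**
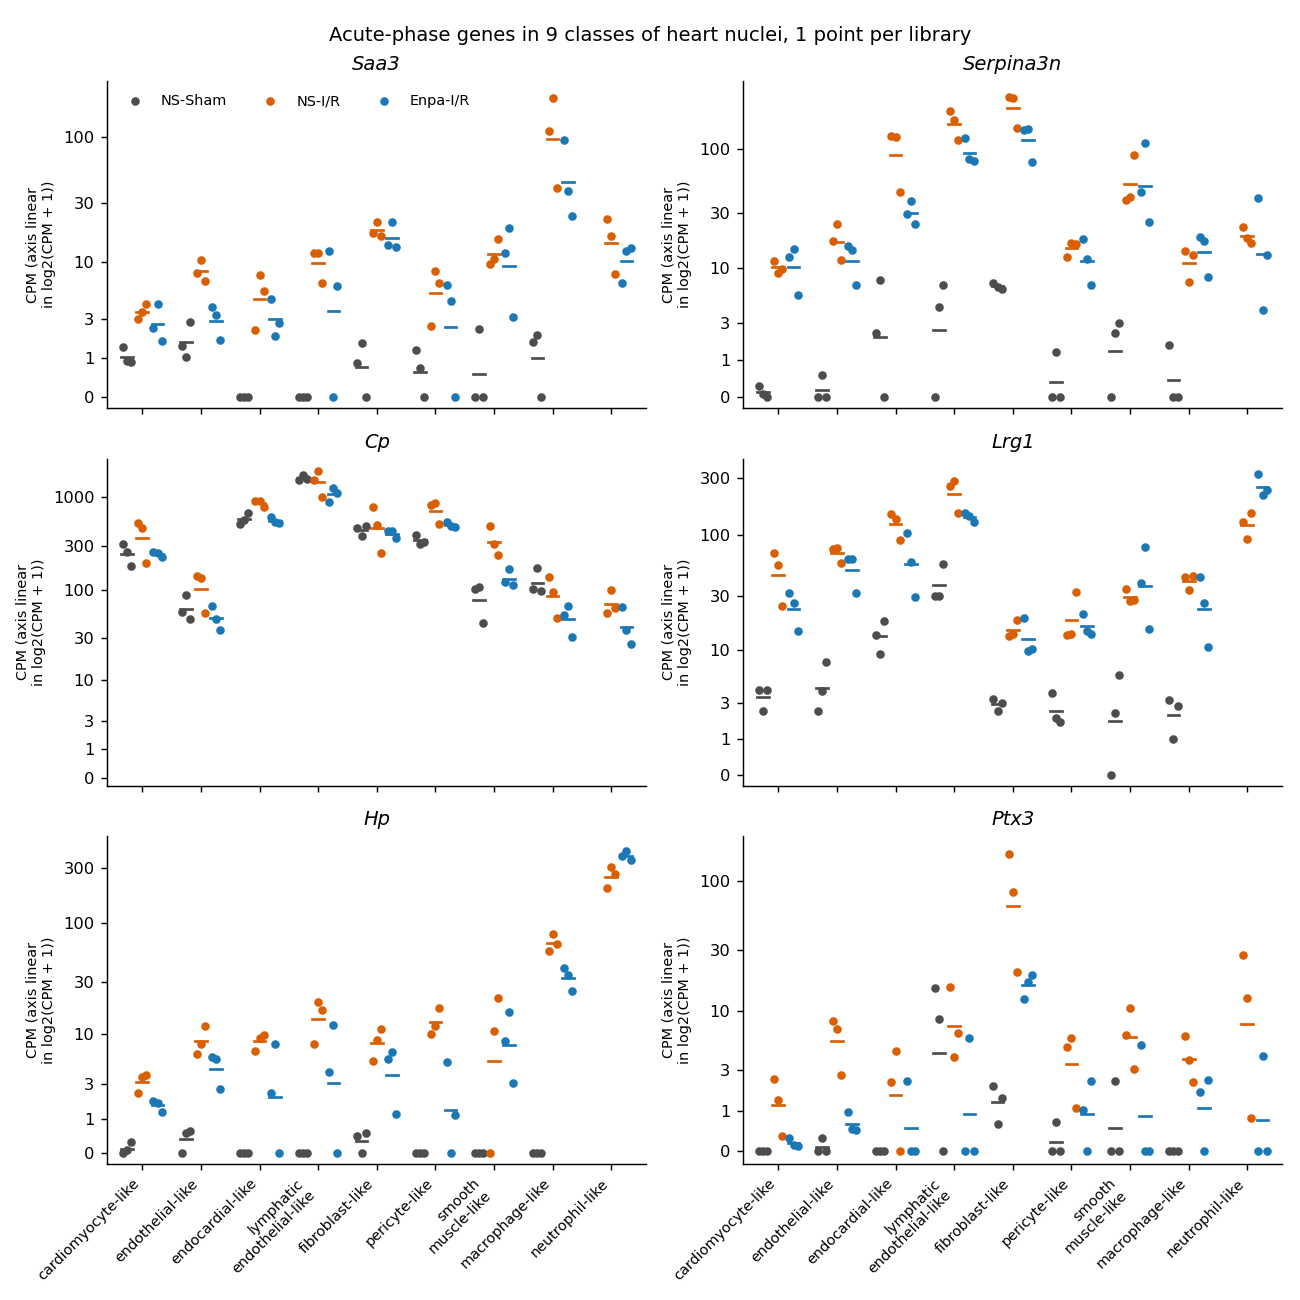
Level in CPM, on an axis linear in log2(CPM + 1), of the 6 genes other than Lcn2 (panels) in each heart (points) with the mean of the plotted values (bars) by class and group. Cp is well above 0 in all sham hearts in the 8 classes with sham values, Hp, Saa3 and Ptx3 are at or near 0 in most of them, and Ptx3 stands out in fibroblast-like nuclei (20.5 to 161 CPM in NS-I/R).

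Lrg1 encodes leucine-rich alpha-2-glycoprotein, a secreted protein that binds the TGF-beta accessory receptor endoglin and modulates signalling in vessels. Its level was the closest of 12319 genes to that of Lcn2, with a Pearson correlation of 0.90 over 72 class-by-heart sums. These sums share libraries and depth. They hold sham and injured hearts together, so the rise of both genes over sham enters the correlation. In cardiomyocyte-like nuclei Lrg1 was at 4.09, 2.40 and 4.17 CPM in NS-Sham, 70.2, 55.9 and 24.7 CPM in NS-I/R and 32.1, 26.1 and 15 CPM in Enpa-I/R. The injured groups overlapped, and their log2 difference of -1.04 ± 0.37 did not pass (adjusted p = 0.0722). Endothelial-like nuclei held 2.43, 4.04 and 7.70 CPM in NS-Sham, 76.4, 77.0 and 57.6 CPM in NS-I/R and 62.8, 62.5 and 31.9 CPM in Enpa-I/R. There the difference between injured groups was small beside the difference to sham (-0.42 ± 0.24, adjusted p = 0.288).

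In the main fit no class was called for Lrg1 between the injured groups, with differences from -1.04 to 1.05 over 9 classes. With a replicate block the cardiomyocyte-like (adjusted p = 0.0493) and neutrophil-like differences (adjusted p = 0.0408) were called. The highest value was in neutrophil-like nuclei, at 128, 91.4 and 151 CPM in NS-I/R and 322, 216 and 236 CPM in Enpa-I/R, without overlap (1.05 ± 0.28, adjusted p = 0.0654). The summed neutrophil markers in neutrophil-like nuclei also differed, at 6207 CPM (5539 to 7050) in NS-I/R and 11824 CPM (11185 to 12198) in Enpa-I/R, and their part in the Lrg1 value was not tested. All Enpa-I/R hearts lay above all sham hearts for Lrg1 in 8 of 8 classes, a count with no share of all pairs beside it. The difference ran from 1.88 ± 0.38 in lymphatic endothelial-like to 3.76 ± 0.77 in smooth muscle-like nuclei. The latter had 3 UMIs in NS-Sham (ratio 14.7 with a 95% counting interval of 4.75 to 73.3). The thinned Lrg1 share of T or NK-like nuclei was 1.39 ± 2.17% in saline-treated and 6.68 ± 8.01% in enpatoran-treated injured hearts. In 290 cardiomyocyte-like nuclei of NS-I/R, counted without thinning, Lcn2 and Lrg1 were found together. At equal depth their joint share in NS-I/R was 2.28 times the product of their separate shares in that class (above 1 in 3 of 3 hearts), and over the 7 classes compared it ran from 1.15 times in endocardial-like (above 1 in 2 of 3) to 2.58 times in macrophage-like nuclei (3 of 3).

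Hp encodes haptoglobin, which binds free haemoglobin for uptake by the macrophage receptor CD163. In NS-I/R 42.7% of Hp UMIs came from neutrophil-like nuclei and 15.8% from macrophage-like nuclei. Macrophage-like Hp was at 0 CPM in all 3 NS-Sham hearts, at 56.6, 80.5 and 65.2 CPM in NS-I/R and at 40.2, 34.3 and 24.9 CPM in Enpa-I/R. NS-I/R was at least 44.3-fold above NS-Sham set to 3 UMIs. The injured groups did not overlap, and Hp fell by 1.00 ± 0.24 under enpatoran (adjusted p = 0.0262). The call was lost without NS-I/R replicate 2 or any 1 Enpa-I/R heart. Without nuclei holding S100a8 or S100a9 the difference was -0.87 ± 0.40 and no longer passed (adjusted p = 0.232), and within macrophage-like cluster 14 it was -0.57 ± 0.26 (adjusted p = 0.282). The thinned Hp share of macrophage-like nuclei was 5.46 ± 1.04% in NS-I/R (11.1% unthinned, median 2082 UMIs). In T or NK-like nuclei, the background class, it was 6.41 ± 5.18% (14.9% unthinned, median 2081.5 UMIs), and in Enpa-I/R no T or NK-like nucleus held an Hp UMI (0 of 50, up to 6.0%). By this measure macrophage-like Hp was not above background in NS-I/R, and the part of background RNA in its difference was not tested.

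Hp per S100a8 or S100a9 UMI in NS-I/R was 0.129 in neutrophil-like nuclei, 0.153 in cardiomyocyte-like, 0.124 in endothelial-like, 0.126 in endocardial-like, 0.189 in fibroblast-like and 0.360 in macrophage-like nuclei. Cardiomyocyte-like Hp was at 2.33, 3.57 and 3.75 CPM in NS-I/R and 1.86, 1.72 and 1.28 CPM in Enpa-I/R, without overlap but not called (-0.98 ± 0.36, adjusted p = 0.0783). It was called once nuclei with S100a8 or S100a9 were left out (-1.39 ± 0.41, adjusted p = 0.0373). In neutrophil-like nuclei Hp was at 202, 305 and 266 CPM in NS-I/R and 388, 423 and 354 CPM in Enpa-I/R, also without overlap and in the other direction (0.60 ± 0.24, adjusted p = 0.204).

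Cp encodes ceruloplasmin, a copper enzyme that oxidises iron as it leaves cells through ferroportin. Cp UMIs were counted in every sham heart in each of the 8 classes with sham values. Lymphatic endothelial-like Cp was at 1547, 1750 and 1572 CPM in NS-Sham, 1544, 1926 and 1021 CPM in NS-I/R and 893, 1260 and 1104 CPM in Enpa-I/R. Endocardial-like Cp was at 519, 569 and 674 CPM in NS-Sham, 904, 924 and 785 CPM in NS-I/R and 609.5, 551 and 536 CPM in Enpa-I/R. NS-I/R endocardial-like nuclei thus stood above both other groups without overlap, with a difference of -0.62 ± 0.16 under enpatoran that did not pass (adjusted p = 0.0899).

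All NS-I/R hearts stood above all sham hearts for Cp in 3 of 8 classes, the mural pericyte-like and smooth muscle-like nuclei and the endocardial-like nuclei. Of all gene-class pairs 21.3% did so. Smooth muscle-like Cp was at 104, 108 and 44.3 CPM in NS-Sham, 488, 313 and 243 CPM in NS-I/R and 123, 169 and 115 CPM in Enpa-I/R. The injured groups did not overlap there, but the difference of -1.36 ± 0.31 was not called (adjusted p = 0.102). The call for Cp under enpatoran was in endothelial-like nuclei, at 144, 136 and 57.6 CPM in NS-I/R and 67.3, 49.4 and 37.1 CPM in Enpa-I/R. These ranges overlapped through NS-I/R replicate 3, and Cp fell by 1.12 ± 0.31 (adjusted p = 0.0457), a call lost without any 1 heart other than NS-Sham replicate 2 and NS-I/R replicate 3. The thinned Cp share of endothelial-like nuclei was 4.57% before injury, 7.28 ± 2.72% after injury with saline and 4.01 ± 1.01% with enpatoran, beside 0.344%, 5.93 ± 3.98% and 4.77 ± 8.25% in T or NK-like nuclei. The injured endothelial-like shares were thus near background, whose part in the difference was not tested. Over 9 classes the difference was negative in 9. Against NS-Sham, Enpa-I/R Cp was without overlap higher in 2 and lower in 2 of 8 classes, counts with no share of all pairs beside them. Among the lower ones were macrophage-like nuclei (104, 174 and 98.0 CPM in NS-Sham and 53.5, 67.9 and 30.9 CPM in Enpa-I/R). Cp overlaps Hps3 on the other strand, both genes are counted in the matrices, and the strand rule of the counting is not given in the sources used here.

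Saa3 encodes a serum amyloid A protein made outside the liver, a lipid-binding protein that attracts leukocytes. Macrophage-like nuclei gave 43.7% of its UMIs in NS-I/R and fibroblast-like nuclei 26.5%. Macrophage-like Saa3 was at 1.63, 1.98 and 0 CPM in NS-Sham, 110.5, 201 and 39.9 CPM in NS-I/R and 94.6, 37.5 and 23.8 CPM in Enpa-I/R. The injured groups overlapped (-1.13 ± 0.47, adjusted p = 0.171). The level rested on few nuclei, as 18 of 1401 with 5 or more UMIs held 52.7% of the 389 UMIs. NS-I/R was 73.6-fold above the 3 UMIs of NS-Sham (95% counting interval 25 to 359).

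Fibroblast-like Saa3 was at 0.826, 1.60 and 0 CPM in NS-Sham, 17.3, 21.2 and 16.3 CPM in NS-I/R and 13.8, 21.1 and 13.2 CPM in Enpa-I/R. The injured groups lay close together (-0.20 ± 0.29, adjusted p = 0.675), and Enpa-I/R lay above NS-Sham by 3.91 ± 0.44. In endothelial-like nuclei Saa3 was at 7.93, 10.4 and 6.80 CPM in NS-I/R and 3.88, 3.26 and 1.75 CPM in Enpa-I/R, without overlap, and fell by 1.46 ± 0.39 (adjusted p = 0.0402). This call was lost without any 1 heart other than NS-Sham replicate 2 and NS-I/R replicate 3, and with DESeq2, the replicate block or 6 hearts in the fit. The endothelial-like sham hearts were at 1.46, 1.01 and 2.75 CPM, overlapping Enpa-I/R. The thinned Saa3 share of T or NK-like nuclei in NS-I/R was 0.151%. Other serum amyloid A genes may share reads with Saa3, which was not tested.

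Ptx3 encodes pentraxin 3, a secreted pattern-recognition protein that binds complement C1q and modulates leukocyte entry. It was largely a fibroblast-like RNA, with 85.5% of its NS-I/R UMIs in that class, the only class with counts enough for a test. Fibroblast-like Ptx3 was at 2.07, 0.602 and 1.5 CPM in NS-Sham, 161, 82.8 and 20.5 CPM in NS-I/R and 12.4, 17.2 and 19.4 CPM in Enpa-I/R. The 3 NS-I/R hearts differed widely, and replicate 3 lay just above the highest Enpa-I/R heart. Ptx3 fell by 2.43 ± 0.55 under enpatoran (adjusted p = 0.0244), the lowest value among the 44 pairs, and lay above NS-Sham by 3.73 ± 0.95. Within fibroblast-like clusters 10 and 12 the difference was -2.14 ± 0.66 (adjusted p = 0.142) and -2.56 ± 0.69 (adjusted p = 0.0858). The call under enpatoran was lost without any 1 Enpa-I/R heart and without the first or the second NS-I/R replicate. No T or NK-like nucleus of NS-I/R held a Ptx3 UMI (0 of 94, up to 3.19%). Ptx3 overlaps Veph1 on the other strand, with both counted.

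Serpina3n encodes a serine protease inhibitor related to human alpha-1-antichymotrypsin. It too was chiefly fibroblast-like, with 72.9% of its NS-I/R UMIs there. Fibroblast-like Serpina3n was at 7.44, 6.82 and 6.52 CPM in NS-Sham, 265, 262 and 148 CPM in NS-I/R and 144, 146 and 78.5 CPM in Enpa-I/R. Each injured heart was above each sham heart, the injured groups did not overlap, and Serpina3n fell by 0.87 ± 0.24 under enpatoran (adjusted p = 0.0460), a call lost without any 1 heart other than NS-I/R replicate 3. In cardiomyocyte-like nuclei it was at 0.234, 0.060 and 0 CPM in NS-Sham, 11.6, 9.17 and 9.93 CPM in NS-I/R and 12.6, 14.7 and 5.70 CPM in Enpa-I/R. There the injured groups overlapped and the difference was 0.10 ± 0.33 (adjusted p = 0.842).

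Vessel-lining classes had Serpina3n as well. Endocardial-like nuclei held 2.31, 7.92 and 0 CPM in NS-Sham, 128, 125 and 44.7 CPM in NS-I/R and 29.3, 37.3 and 24.0 CPM in Enpa-I/R. The injured groups did not overlap, but the difference of -1.67 ± 0.39 was not called (adjusted p = 0.0699). A replicate block gave a call (adjusted p = 0.0184). Lymphatic endothelial-like nuclei held 204, 171 and 119 CPM in NS-I/R and 123, 83.6 and 79.3 CPM in Enpa-I/R, with overlap (-0.75 ± 0.31, adjusted p = 0.297). All Enpa-I/R hearts lay above all sham hearts for Serpina3n in 8 of 8 classes, in fibroblast-like nuclei by 4.14 ± 0.33. No share of all pairs stands beside this count, so nothing is read from it. The thinned Serpina3n share of T or NK-like nuclei in NS-I/R was 0.678%. Serpina3n is 1 of several near-identical genes of its cluster, so part of its reads may be shared.

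RNA levels of genes for signals that induce acute-phase genes differed with injury and with enpatoran. This list and the other lists below were chosen with earlier results of these data known. The genes named from them are those called in the most classes, so the counts and p-values describe the listed genes only. In a list of 29 such genes (cytokines, receptors, STAT3, NF-kB and C/EBP factors), 110 of 180 tested gene-class pairs were called higher in NS-I/R than NS-Sham and 7 lower, where 15.9% of all pairs were called higher and 15.6% lower; the median log2 difference was 1.14, and that of all genes was between -0.009 and 0.026 over the classes. Socs3, the feedback inhibitor of STAT3 signalling, rose in 8 of 8 classes, from 0.322 to 21.1 CPM in cardiomyocyte-like nuclei (5.86 ± 0.53, adjusted p = 3.39e-05). Osmr, the oncostatin M receptor, rose in 8 classes as well, from 7.30 to 195 CPM in cardiomyocyte-like nuclei (4.75 ± 0.40, adjusted p = 2.46e-05). Cebpb, a C/EBP factor, rose in 7 classes, and so did Il1r1, the interleukin-1 receptor, which went from 22.5 to 284 CPM in macrophage-like nuclei (3.88 ± 0.46, adjusted p = 1.43e-05).

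Of 205 pairs of that list tested between the injured groups, 38 were called lower in Enpa-I/R and 2 higher (4.23% and 3.15% of all pairs), with a median of -0.39. Il6, the cytokine interleukin-6, fell in 5 classes. Pericyte-like Il6 was at 450.3, 292 and 120.1 CPM in NS-I/R, at 22, 45 and 30.5 CPM in Enpa-I/R and at 0 in all sham hearts. The injured groups did not overlap, and it fell by 3.17 ± 0.40 (adjusted p = 0.00145). Fibroblast-like Il6 was at 264, 91.1 and 10.1 CPM in NS-I/R and 4.06, 4.21 and 18.5 CPM in Enpa-I/R, with overlap through NS-I/R replicate 3, and fell by 3.79 ± 0.91 (adjusted p = 0.0284). This call was lost with a replicate block (adjusted p = 0.0666). Socs3 fell in 5 classes: cardiomyocyte-like Socs3 was at 27.7, 25 and 10.5 CPM in NS-I/R and 8.57, 6.13 and 4.52 CPM in Enpa-I/R, without overlap (fell by 1.70 ± 0.37, adjusted p = 0.0168). Nfkbiz, a nuclear NF-kB cofactor known to drive Lcn2 transcription, fell in 4 classes, from 23.0 to 8.78 CPM in cardiomyocyte-like nuclei (fell by 1.39 ± 0.28, adjusted p = 0.0146). Il17ra, a receptor whose ligand induces Lcn2, fell in 3 classes, and in fibroblast-like nuclei it fell by 1.32 ± 0.19 (adjusted p = 0.00771).

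Receptors, partners and targets of the 7 proteins (24 genes) had 36 pairs called higher and 11 lower of 103 tested in NS-I/R against NS-Sham (15.9% and 15.6% of all pairs), with a median of 0.30. Tlr4, a receptor for serum amyloid A among other ligands, rose in 6 classes, from 135 to 731 CPM in macrophage-like nuclei (2.42 ± 0.33, adjusted p = 4.88e-05). Selp, P-selectin, which binds Ptx3 on vessels, rose in the 3 endothelial classes, from 0.829 to 76.6 CPM in endothelial-like nuclei (6.18 ± 0.50, adjusted p = 1.99e-06). Tgfbr2, a TGF-beta receptor, went both ways: it rose by 1.32 ± 0.20 in endothelial-like nuclei (adjusted p = 0.000245) and fell by 1.25 ± 0.16 in macrophage-like nuclei (adjusted p = 2.92e-05). Fcgr2b, an Fc receptor that pentraxins bind, rose in 4 classes. Between the injured groups 14 pairs were called lower in Enpa-I/R and 5 higher of 117 (4.23% and 3.15% of all pairs), with a median of -0.23. Macrophage-like Tlr4 fell by 1.64 ± 0.31 (adjusted p = 0.00557), Fcgr2b fell in 4 classes and Fgf2, a growth factor that Ptx3 binds, in 2. C1qa, a C1q chain, rose in macrophage-like nuclei from 173 to 350.5 CPM (1.01 ± 0.18, adjusted p = 0.00421).

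Iron handling (16 genes) is the process in which Lcn2, Cp and Hp take part. Of 94 pairs 29 were called higher in NS-I/R than NS-Sham and 10 lower (15.9% and 15.6% of all pairs), with a median of 0.46. Slc39a14, an importer of iron and zinc, rose in 8 of 8 classes: fibroblast-like Slc39a14 was at 50.0, 46.7 and 45.1 CPM in NS-Sham, 1118, 1123 and 412 CPM in NS-I/R and 335, 313 and 334 CPM in Enpa-I/R, with no overlap among the 3 groups. It rose by 4.22 ± 0.33 after injury (adjusted p = 2.54e-06) and was lower under enpatoran, where it fell by 1.43 ± 0.28 (adjusted p = 0.0179). Hmox1, heme oxygenase-1, rose in 4 classes, from 20.8 to 259 CPM in macrophage-like nuclei (3.51 ± 0.24, adjusted p = 7.16e-08). Slc40a1, ferroportin, the exporter that works with ceruloplasmin, fell in 4 classes, from 89.2 to 14.3 CPM in macrophage-like nuclei (fell by 2.57 ± 0.35, adjusted p = 5.48e-05); with the replicate number as a block the cardiomyocyte-like call was lost (-1.75, adjusted p = 0.0516). Fbxl5, an iron-sensing ligase subunit, rose in 5 classes. Under enpatoran 11 of 102 pairs were called lower and 2 higher (4.23% and 3.15% of all pairs), with a median of -0.23. Slc39a14 fell in 4 classes and Fbxl5 in 2, and the higher pairs were neutrophil-like Slc40a1 (1.98 ± 0.33, adjusted p = 0.0141) and cardiomyocyte-like Steap3, a ferrireductase (0.86 ± 0.20, adjusted p = 0.0195).

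Of 26 other acute-phase genes, 9 had counts enough in any class, and 11 of their 19 pairs were called higher in NS-I/R and 1 lower (15.9% and 15.6% of all pairs), with a median of 1.49. Il1rn, the interleukin-1 receptor antagonist, rose from 0.873 to 19.0 CPM in macrophage-like nuclei (4.08 ± 0.62, adjusted p = 0.000125), and Cd14, a co-receptor for bacterial lipids, rose there by 1.61 ± 0.24 (adjusted p = 9.36e-05). Lbp, the binding protein for those lipids, rose in endocardial-like and endothelial-like nuclei. C3, complement component 3, was the pair called lower, in fibroblast-like nuclei. It was at 146 CPM in NS-Sham, 81.7 CPM in NS-I/R and 142 CPM in Enpa-I/R (means of 3 hearts), and fell by 0.83 ± 0.12 after injury (adjusted p = 0.000208). Between the injured groups C3 was the only called pair of 22 (3.15% of all pairs were called higher), higher in Enpa-I/R by 0.80 ± 0.12 (adjusted p = 0.0112).

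Likeness to the 7 genes was ranked over the same 72 class-by-heart sums, as a description. After Lrg1 (0.90), the genes most like Lcn2 were Serpina3n (0.79), S100a9 (0.78), Psmd1 (0.78) and Anxa7 (0.77). Saa3 was most like Cxcl3 (0.86), Cd300lf (0.84) and Gsr (0.83), and Hp most like Chil3 (0.88), Cd300lf (0.88) and S100a9 (0.86). For Serpina3n they were AI506816 (0.84), Timp1 (0.82) and Mt2 (0.81), and for Ptx3 they were Psmd14 (0.76), Pdcd11 (0.75) and Tnc (0.74). Lrg1 was most like Lcn2 (0.90), Anxa7 (0.78) and Tgm2 (0.77), and Cp was most like Ankrd6 (0.82), Slc45a3 (0.80) and Igsf3 (0.80).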

How the data were processed

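Single-nucleus RNA libraries (10x 3' v3.1) of 9 hearts were read as deposited: UMI counts per gene and barcode, made by the authors with Cell Ranger 8.0.0 per the file headers, while the submitters' processing notes name Cell Ranger 6.1.1, Seurat, GRCh38 and GRCm39. The build of the files and the strand rule of the counting are not given in the sources used here. Barcodes with at least 500 genes and at most 5% mitochondrial UMIs were kept. Doublets were removed as the top Scrublet scores, 0.8% per 1000 barcodes (107 to 453 barcodes in a library). The threshold Scrublet sets by itself marked 0 to 2 barcodes of each injured heart, so it was not used. Before filtering, 425 of 56340 distinct barcodes occurred in 2 or more libraries. Nuclei were clustered without the 7 genes, the 4 gene lists and neutrophil-related genes (scanpy 1.11.5; 2000 variable genes, 30 principal components, 15 neighbours, Leiden resolution 1), and clusters were named from marker lists. A class was tested where each library held at least 25 nuclei.

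UMI counts were summed per heart and class and fitted with edgeR 4.0.16 (R 4.3.3; filterByExpr, TMM, quasi-likelihood F test), with all 9 hearts in one fit per class (neutrophil-like nuclei: the 6 injured hearts) and Benjamini-Hochberg adjustment over all genes tested in that class and contrast; a call is an adjusted p under 0.05. Each ± beside a log2 difference is the SE. The hearts are separate mice per the labels, and p-values measure the spread between 3 hearts a group. Shares were computed after thinning nuclei to 1000 UMIs and compared by exact permutation (scipy 1.17.1). The fit was tested on simulated data, where it recovered 15.5% (smooth muscle-like) to 58.5% (endothelial-like) of genes changed by 1 on the log2 scale in the classes fitted over 9 hearts and 3% in neutrophil-like nuclei.

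The 7 genes and the lists were chosen with earlier results of these data known. Named genes are the 7, up to 4 genes per list and contrast called in the largest number of classes at 10 CPM or more in 1 group, and the genes most correlated with each of the 7. Alternatives were DESeq2 1.42.0, another normalization, no count filter, other limits on nuclei, another clustering resolution, a replicate block, 6 libraries only and each heart left out. The labels number the hearts 1 to 3 in each group. Deviations of same-numbered NS-Sham and NS-I/R hearts correlated at 0.105, 0.11 and 0.119 over 9449 genes. Replicate 2 of NS-Sham and of Enpa-I/R reached 0.106, and hearts of unlike number were not compared. Whether the numbers pair any hearts was thus not settled. The fit with the number as a block is an alternative. The calls it changes between the injured groups, for the 7 genes and the named list genes, are given below.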

Additional observations from a re-analysis of the deposited data

Results flagged for a closer look

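The difference between Enpa-I/R and NS-I/R was itself compared between neutrophil-like nuclei and 4 other classes in 27 tests of the 7 genes, a comparison added after seeing the data (log2 difference in neutrophil-like nuclei minus that in the other class; edgeR's quasi-likelihood test with the heart as a block, adjusted over all genes tested). In 11 tests the 2 classes differed. Over all genes, 218 of 10797 were called against macrophage-like nuclei and 332 of 14424 against cardiomyocyte-like nuclei. The counts were 239 of 12273 against endothelial-like nuclei and 305 of 13465 against fibroblast-like nuclei. For Lcn2 the neutrophil-like value was above the macrophage-like one by 1.29 (SE 0.35, adjusted p = 0.0463), the cardiomyocyte-like one by 1.421 (SE 0.328, adjusted p = 0.00356), the fibroblast-like one by 1.446 (SE 0.306, adjusted p = 0.00198) and the endothelial-like one by 1.947 (SE 0.306, adjusted p = 2.892e-05). For Hp it was above the macrophage-like value by 1.552 (SE 0.296, adjusted p = 0.00255), the cardiomyocyte-like value by 1.408 (SE 0.391, adjusted p = 0.0253) and the fibroblast-like value by 1.408 (SE 0.383, adjusted p = 0.0263). For Lrg1 the differences were 1.585 against macrophage-like (SE 0.358, adjusted p = 0.0109), 1.82 against cardiomyocyte-like (SE 0.367, adjusted p = 0.000558), 1.268 against endothelial-like (SE 0.31, adjusted p = 0.0135) and 1.233 against fibroblast-like nuclei (SE 0.359, adjusted p = 0.0457). The classes compared come from the same 6 hearts. Lcn2 was picked as a top increase in cardiomyocyte and endothelial nuclei, with the NS-I/R hearts in view. That choice alone can raise its differences here, so its p-values carry this limit. The summed neutrophil markers of neutrophil-like nuclei were also higher in Enpa-I/R than in NS-I/R, and their part in these differences was not tested.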

How the results depend on the processing

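The 9 calls between Enpa-I/R and NS-I/R became 19 of 63 pairs with no low-count filter, 3 with only the 6 hearts of the contrast in the fit and 5 with nuclei of at least 1000 genes; leaving out 1 heart at a time gave 0 to 25. The 73 calls of the lists in that contrast became 113 with no filter and 35 with 6 hearts, and 16 to 169 with 1 heart left out (169 without NS-I/R replicate 3). The share differences for Lcn2 were -11.5 percentage points without thinning and -5.02 at 2000 UMIs in cardiomyocyte-like nuclei (-3.75 to -1.86 with 1 heart left out), and -6.95 and -7.22 in endothelial-like nuclei (-5.58 to -3.18). The Cp difference between NS-I/R and NS-Sham, 0.22 in fibroblast-like and -0.12 in lymphatic endothelial-like nuclei, took the other sign without 1 heart, at -0.22 without NS-I/R replicate 1 (range -0.22 to 0.55) and 0.10 without NS-I/R replicate 3 (range -0.33 to 0.10). The cause of these changes was not tested, other than that fewer hearts or a filter left out change what is fitted. The counts of 30 calls against sham (23 to 34), of 35 pairs without overlap (33 to 48) and of 215 list calls after injury (181 to 261) stayed within 1.5 times in 19 alternatives each. Nothing is read from the counts of 30 and 35, because the sham hearts served in the choice of the genes.

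Of the called pairs, Lcn2 in cardiomyocyte-like nuclei lost its call with 6 hearts and with a mitochondrial limit of 20% (adjusted p over all alternatives 0.00026 to 0.0748). Macrophage-like Lcn2 lost it with DESeq2, the replicate block, 6 hearts, at least 1000 genes and the finer clustering, endothelial-like Saa3 with DESeq2, the block and 6 hearts, fibroblast-like Serpina3n with 6 hearts, at least 1000 genes and doublets kept, macrophage-like Hp with at least 1000 genes and doublets kept, and Cp and Ptx3 with 6 hearts. Lcn2 in endothelial-like and fibroblast-like nuclei kept its call in the 10 alternatives other than left-out hearts. Leaving out nuclei with S100a8 or S100a9 gave 9 calls of 39 pairs, with macrophage-like Hp lost and cardiomyocyte-like Hp gained.

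Same-numbered hearts correlated at -0.266 to -0.069 between NS-I/R and Enpa-I/R in their deviations over 9449 genes. Between NS-Sham and Enpa-I/R the correlation was -0.157 to 0.106. The labels give these hearts only a shared number. With the number as a replicate block the counts for the 7 genes were 12 between the injured groups, 30 against sham and 35 without overlap, and those for the lists 211 after injury and 66 between the injured groups. Between the injured groups the block gained calls for endocardial-like Lcn2 (-2.35, adjusted p = 0.00994) and endocardial-like Serpina3n (-1.69, adjusted p = 0.0184). It also gained cardiomyocyte-like Lrg1 (-1.01, adjusted p = 0.0493), neutrophil-like Lrg1 (1.09, adjusted p = 0.0408) and macrophage-like Cp (-0.89, adjusted p = 0.0485). Calls lost between the injured groups were macrophage-like Lcn2 (adjusted p = 0.0524) and endothelial-like Saa3 (adjusted p = 0.0637). Among named list genes they were endothelial-like Socs3 (adjusted p = 0.0674) and Tlr4 (adjusted p = 0.0606), fibroblast-like Il6 (adjusted p = 0.0666) and pericyte-like Fcgr2b (adjusted p = 0.0505). Between NS-Sham and NS-I/R the block changed no call of a named list gene other than that of cardiomyocyte-like Slc40a1. Paired by number, the share differences of -2.89 and -4.21 percentage points had an exact sign-flip p of 0.25, the smallest that 3 pairs allow, in a test added after seeing the data.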

Other observations

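Small classes that were not tested also held Lcn2 after injury. In NS-I/R, 46 epicardial-like nuclei, the outer lining of the heart, held 118 Lcn2 UMIs, and after thinning a mean of 17.1% of them per heart had one. Of 36 adipocyte-like nuclei, 31 came from NS-I/R replicate 2; they held 167 Lcn2 UMIs, with a thinned share of 26.5%, and gave 12.7% of all Hp UMIs in NS-I/R. In 116 Schwann-like nuclei 51 Lcn2 UMIs were counted, with a thinned share of 9.75%. The unnamed cluster, led by heat-shock genes, held 26 Lcn2 UMIs in 419 NS-I/R nuclei.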
